A study of Mus musculus with 34 samples.

Results

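Krüppel-like factors (KLFs) are transcription factors that bind GC-rich and CACCC elements of promoters through zinc fingers at the end of the protein. The 10 genes described here, *Klf2*, *Klf4*, *Klf6*, *Klf7*, *Klf9*, *Klf10*, *Klf11*, *Klf13*, *Klf15* and *Klf16*, are part of the family. They were taken by gene symbol, with earlier results of these data known. The other 8 KLF genes are described further below. All 10 were found in the bulk RNA-seq table of 54532 genes, and all 10 were among the 22018 genes with enough counts to be tested. The table holds the dorsal hippocampus of 8 adult male C57BL/6J mice at 2 to 3 months of age. Mice were housed singly and handled before the experiment, 4 were trained in the spatial object recognition task (SOR) and euthanized 1 h later, and 4 stayed in the homecage and were euthanized at the same time of day. SOR training differs from the homecage in more than learning, since it also brings a new arena and new objects.

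The family divides by structure and function, which orders the results below. *Klf9*, *Klf13* and *Klf16* form a group of mostly repressive factors that recruit the SIN3A corepressor, and *Klf9* is a classic target of thyroid hormone and glucocorticoids in brain. *Klf10* and *Klf11* were first described as early genes induced by TGF-beta. *Klf15* is a glucocorticoid-responsive regulator of amino acid and lipid metabolism. *Klf2* and *Klf4* keep endothelial cells quiescent and lie downstream of the kinase ERK5 and the MEF2 factors, and *Klf4* is also one of the reprogramming factors. In neurons, *Klf4* and *Klf9* are known to restrain axon growth and *Klf6* and *Klf7* to promote it.

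Library depth ranged from 51406011 to 81525977 estimated counts. The 8 markers of hippocampal neurons were all measured, and their summed level was 1117 to 1277 CPM (counts scaled to the library size) in homecage and 1123 to 1288 CPM in SOR mice. Libraries differed in choroid plexus RNA, whose 6 markers summed to between 24.6 and 1094 CPM in homecage and between 40.6 and 4001 CPM in SOR mice, the highest in SOR replicate 1. The 5 red blood cell markers summed to 98.6 to 127 CPM in homecage mice, and to 177 and 184 CPM in SOR replicates 1 and 4 against 115 and 118 CPM in SOR replicates 2 and 3. In whole tissue, a larger number of cells of one type and more RNA per cell cannot be told apart.

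All 10 factors were expressed, over a range that is best compared per kb of exon. *Klf9* was highest in every mouse, at 34.4 ± 2.96 CPM per kb (SD, n = 8 mice), followed by *Klf13* at 12.4 ± 0.863 CPM per kb. In homecage mice the next places were held by *Klf6* at 9.14, *Klf16* at 7.31, *Klf15* at 6.09, *Klf10* at 5.77 and *Klf7* at 4.88 CPM per kb. In SOR mice *Klf15* stood at 9.02 CPM per kb, beside *Klf6* at 8.94, *Klf10* at 7.54 and *Klf16* at 7.44. *Klf15* was below *Klf16* in 4 of 4 homecage mice, and above it in 3 of 4 SOR mice. *Klf16* was above *Klf10* in 4 of 4 homecage mice and in 1 of 4 SOR mice. The ranges of *Klf15* and *Klf10* overlapped in both groups. In SOR mice so did those of *Klf6* and *Klf15*, *Klf6* and *Klf10*, *Klf15* and *Klf16*, and *Klf16* and *Klf10*. *Klf11* at 1.08, *Klf4* at 0.617 and *Klf2* at 0.615 CPM per kb closed the order, and the last pair could not be ranked. By these lengths *Klf9* made up 40.2% ± 0.243 (SD, n = 4) of the summed level of the 10 genes in homecage and 41.2% ± 1.04 (SD, n = 4) in SOR mice.

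**Figure D1:**
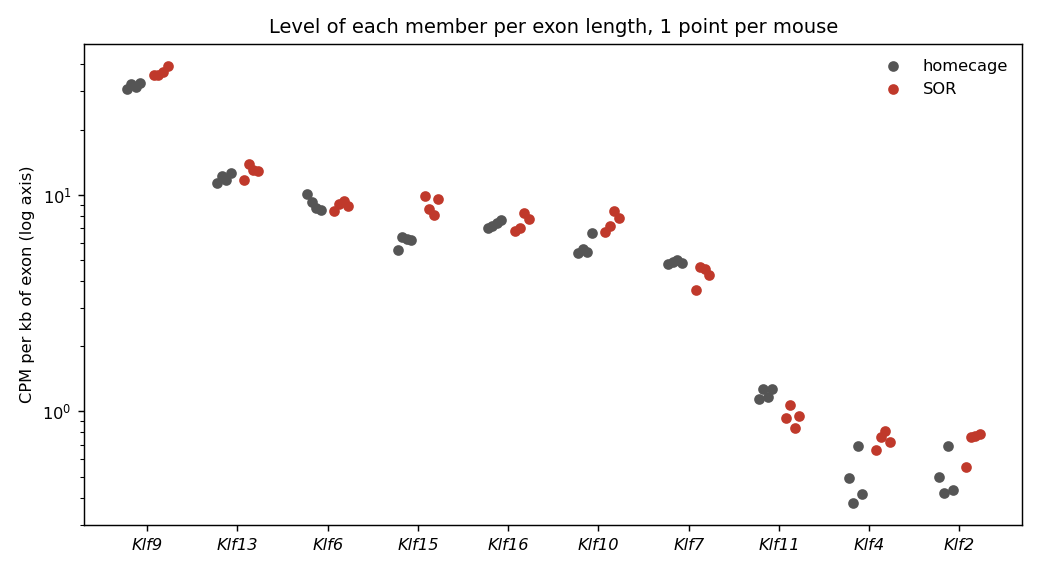
Level of each of the 10 genes in CPM per kb of exon on a log axis, with 1 point per mouse, grey for homecage and red for SOR. *Klf9* lies above all others and *Klf2* and *Klf4* lie lowest, and the SOR points of *Klf15* lie level with those of *Klf6*.

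Do the 10 members differ between trained and homecage mice? 1 of 10 members, *Klf15*, rose after training, with an adjusted p below the threshold of 0.05 (edgeR's quasi-likelihood test, adjusted by Benjamini-Hochberg over the 22018 genes), and none fell. Among all genes tested, 0.309% passed in either direction, 0.273% as higher and 0.0363% as lower. *Klf15* also exceeded a fold change of 1.4, as 0.173% of all genes did together with the p threshold. At an unadjusted p under 0.05 there were 7 members, beside 10.1% of all genes. The SOR and homecage values did not overlap for 5 members, with SOR above for *Klf9*, *Klf10* and *Klf15* and SOR below for *Klf7* and *Klf11*, beside 6.94% of all genes, 2.98% with SOR above and 3.96% with SOR below. In all, 7 of 10 members were higher in SOR mice, beside 43.8% of all genes, and the median log2 fold change of the members was 0.16, beside -0.02 over all genes. The summed CPM of the 10 genes was 391.7 ± 9.77 in homecage and 433 ± 18.1 in SOR mice (SD, n = 4 in each group), a sum in which *Klf9* has the largest share.

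**Figure D2:**
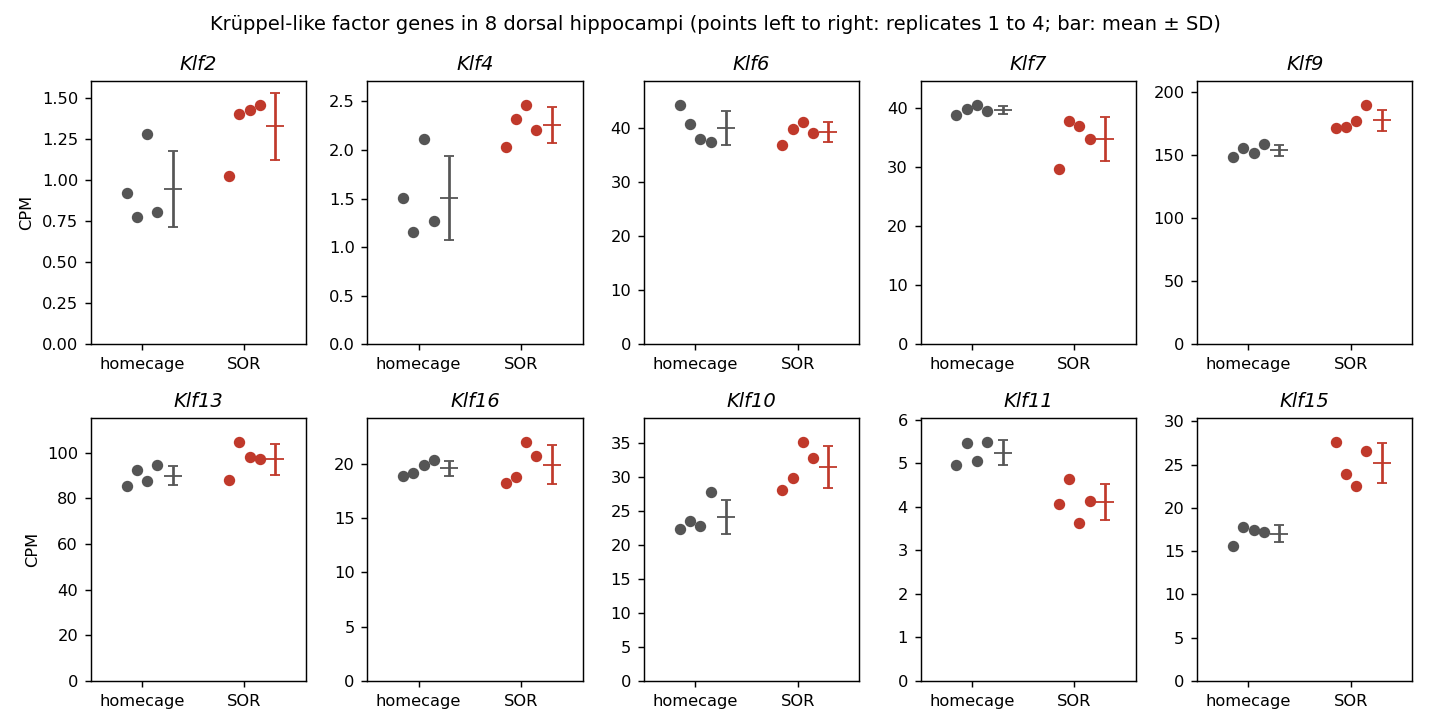
CPM of each member in the 4 homecage (grey) and 4 SOR (red) mice, ordered by role, with points from left to right for replicates 1 to 4 and bars for the mean ± SD. The groups are separate for *Klf7*, *Klf9*, *Klf10*, *Klf11* and *Klf15* and overlap for the other 5 genes.

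*Klf15* (ENSMUSG00000030087, chromosome 6 of GRCm38 from 90462576 to 90475238, plus strand) was the member that passed the threshold. Homecage mice had 15.5, 17.8, 17.5 and 17.2 CPM and SOR mice 27.6, 23.9, 22.5 and 26.6 CPM. Every SOR value lay above every homecage value, and within the SOR group replicates 1 and 4 were the highest. The means were 17.0 ± 1.0 and 25.2 ± 2.34 CPM (SD, n = 4 in each group), 1.48-fold higher in SOR mice with a 95% interval from 1.31 to 1.67. The log2 fold change of 0.57 ± 0.0782 (SE) had an adjusted p of 0.0142 from the edgeR test, and the exact two-sided permutation test gave p = 0.0286, the smallest that 4 against 4 mice allow. By p, *Klf15* ranked 32 among the genes tested. Its place past the threshold depended on single mice: the adjusted p was 0.0525 without homecage replicate 1, 0.0501 without homecage replicate 2, 0.0685 without homecage replicate 4 and 0.0502 without SOR replicate 4, and from 0.0148 to 0.0493 without each of the other 4 mice. The log2 fold change stayed between 0.52 and 0.62 throughout the fits without 1 mouse. Over all genes, 68 passed with all mice and between 30 and 55 without 1 mouse.

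The mice with the highest *Klf15* level were those with the most red blood cell RNA, and SOR replicate 1 also had the most choroid plexus RNA. The part of blood or choroid plexus RNA in the *Klf15* difference was not tested. The SOR mice with 115 and 118 CPM of blood markers had 23.9 and 22.5 CPM of *Klf15*, and homecage mice reached at most 17.8 CPM. In replicate order, the choroid plexus sums were 1094, 24.6, 64.8 and 882 CPM in homecage mice and 4001, 882, 794 and 40.6 CPM in SOR mice. Without SOR replicate 1, *Klf15* had a log2 fold change of 0.52 with an adjusted p of 0.0270 from edgeR's quasi-likelihood test. In that test *Klf15* did not pass without SOR replicate 4, the mouse with the most red blood cell RNA. As given above, it also did not pass without homecage replicate 1, 2 or 4. Markers of astrocytes, cells in which *Klf15* is expressed, summed to 4405 to 4620 CPM in the homecage group, and 4356 to 4719 CPM after SOR training.

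*Klf9* (ENSMUSG00000033863, chromosome 19 from 23141226 to 23168134, plus strand) was the most abundant member, with between 8164 and 12742 counts per library. Homecage mice had 148, 156, 152 and 159 CPM and SOR mice 171, 172, 177 and 190 CPM. The groups did not overlap. The difference was small and narrow in spread, 1.16-fold with a 95% interval from 1.08 to 1.23. Its log2 fold change of 0.21 ± 0.0424 (SE) missed the threshold in edgeR's quasi-likelihood test, with an adjusted p of 0.0909 (exact permutation test, p = 0.0286). In 5 of 13 alternative fits *Klf9* passed, with adjusted p from 3.37e-04 to 0.139 over the 13, and without 1 mouse it passed in none of 8.

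The other factors of this group gave smaller differences. *Klf13* (ENSMUSG00000052040, chromosome 7 from 63886351 to 63938915, minus strand) had 85.4, 92.4, 87.8 and 94.5 CPM in the homecage group, and 88.0, 105, 98.2 and 97.3 CPM after SOR training. SOR replicate 1 fell within the homecage range, and the fold change of 1.08 had an interval from 0.989 to 1.17 (adjusted p = 0.554 from the edgeR test). *Klf16* (ENSMUSG00000035397, chromosome 10 from 80567124 to 80577321, minus strand) had 18.8, 19.1, 19.9 and 20.4 CPM in the homecage group, and 18.2, 18.7, 22.0 and 20.7 CPM after SOR training. SOR replicates 1 and 2 were below every homecage mouse and SOR replicates 3 and 4 above, and the fold change of 1.02 had an interval from 0.911 to 1.14 (adjusted p = 0.942). The ratio of *Klf9* to *Klf13* counts within a mouse, which does not depend on library scaling, was 1.71 ± 0.0296 in homecage and 1.83 ± 0.146 in SOR mice (SD, n = 4 in each group), and overlapped.

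*Klf10* and *Klf11*, a pair with related repression domains, lay on opposite sides. *Klf10* (ENSMUSG00000037465, chromosome 15 from 38291463 to 38300706, minus strand) had 22.4, 23.6, 22.8 and 27.7 CPM in the homecage group, and 28.1, 29.9, 35.2 and 32.8 CPM after SOR training. Every SOR value was above every homecage value, although SOR replicate 1 lay close to homecage replicate 4. The fold change was 1.30 with an interval from 1.14 to 1.49 (log2 fold change 0.38 ± 0.0885 SE, edgeR adjusted p = 0.141). *Klf11* (ENSMUSG00000020653, chromosome 12 from 24651274 to 24662789, plus strand) was scarcer, with between 211 and 438 counts per library. It had 4.96, 5.48, 5.05 and 5.50 CPM in the homecage group, and 4.06, 4.64, 3.64 and 4.14 CPM after SOR training. All SOR values were below all homecage values, with a fold change of 0.784, an interval from 0.668 to 0.921 and an adjusted p of 0.273. The groups therefore separated for both genes, and neither passed the threshold over all genes.

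Since *Klf10* and *Klf11* are measured in the same libraries, their ratio is free of the scaling factor, and it was examined after the values had been seen, without a test. The *Klf10* count was 4.51, 4.30, 4.52 and 5.04 times the *Klf11* count in homecage mice, and 6.91, 6.45, 9.67 and 7.93 times in SOR mice. No SOR ratio reached down to a homecage ratio, which follows by necessity from the separation of both genes in opposite directions. It is therefore no added evidence. The SOR ratios spread more widely, with an SD of 1.43 against 0.317. *Klf10* passed the threshold in 5 of the 13 alternative fits, the same 5 as *Klf9*: DESeq2, edgeR's likelihood ratio test alone, and that test with 1, 2 and 3 factors of unwanted variation. *Klf11* passed in none, with adjusted p from 0.0855 to 0.415.

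*Klf2* and *Klf4*, the endothelial factors, were the scarcest members. *Klf2* (ENSMUSG00000055148, chromosome 8 from 72319033 to 72321656, plus strand) had between 50.6 and 92.9 counts per library, and *Klf4* (ENSMUSG00000003032, chromosome 4 from 55527143 to 55532466, minus strand) between 82 and 160 counts. *Klf4* had 1.5, 1.15, 2.12 and 1.26 CPM in the homecage group, and 2.03, 2.32, 2.46 and 2.21 CPM after SOR training. Homecage replicate 3 reached into the SOR range, above SOR replicate 1, and the other 3 homecage mice lay below every SOR mouse. *Klf2* showed the same arrangement, with 0.919, 0.777, 1.28 and 0.804 CPM in the homecage group, and 1.02, 1.4, 1.43 and 1.46 CPM after SOR training. The fold changes, 1.5 for *Klf4* (95% interval from 1.12 to 2.00) and 1.4 for *Klf2* (1.03 to 1.92), were about as large as that of *Klf15*, with far wider intervals. Neither passed in edgeR's quasi-likelihood test (adjusted p = 0.329 for *Klf4* and 0.457 for *Klf2*), in any of the 13 alternatives or in any fit without 1 mouse. Without homecage replicate 3, the log2 fold change was 0.79 for *Klf4* and 0.67 for *Klf2*, with adjusted p of 0.152 and 0.362.

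The ratio of *Klf4* to *Klf2* counts stayed within 1.48 to 1.66 in homecage and 1.51 to 1.98 in SOR mice. The 10 endothelial markers summed to 161 to 193 CPM in the homecage group, and 170 to 178 CPM after SOR training, 4 of 10 were higher and 6 lower in SOR mice, and 0 passed in edgeR's test (2 at an unadjusted p under 0.05, and 1, *Cldn5*, called as lower by DESeq2). Among genes that *KLF2* and *KLF4* are described to induce in endothelium, *Nos3*, the endothelial nitric oxide synthase, had 4.53 ± 0.475 and 4.87 ± 0.456 CPM, and *Thbd*, thrombomodulin, 12 ± 1.52 and 13 ± 1.06 CPM in homecage and SOR mice (SD, n = 4 in each group). *S1pr1*, a sphingosine phosphate receptor that KLF2 induces, had 161 ± 9.51 and 175 ± 21.7 CPM. Its SOR replicate 4 stood at 208 CPM, and the other SOR mice at 161 to 167 CPM. *Edn1*, which KLF2 and KLF4 repress, had 0.986 ± 0.230 and 0.720 ± 0.101 CPM. None of these 4 targets, named here after their values were seen, passed the threshold (adjusted p = 0.82, 0.774, 0.651 and 0.506 from the edgeR test).

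*Klf6* and *Klf7*, the pair that promotes axon growth, were of similar CPM in homecage mice. Per kb of exon *Klf6* was the higher in 4 of 4 homecage mice, with means of 9.14 and 4.88 CPM per kb. *Klf6* (ENSMUSG00000000078, chromosome 13 from 5861482 to 5870394, plus strand) had 44.4, 40.7, 38.0 and 37.4 CPM in the homecage group, and 36.9, 39.9, 41.2 and 39.1 CPM after SOR training. The groups overlapped over most of their range, and the fold change of 0.979 had an interval from 0.889 to 1.08. *Klf7* (ENSMUSG00000025959, chromosome 1 from 64029447 to 64122282, minus strand) had 38.8, 39.8, 40.5 and 39.5 CPM in the homecage group, and 29.6, 37.8, 36.9 and 34.6 CPM after SOR training. All SOR mice lay below all homecage mice, with SOR replicate 1 far below the rest. The fold change of 0.875 (interval from 0.784 to 0.977) had an adjusted p of 0.4 from the edgeR test, and without SOR replicate 1 the log2 fold change moved from -0.19 to -0.12. On the opposite strand the long noncoding gene *Gm26649*, named here because it shares 3196 exon bases with *Klf7*, was at 0 counts in every library.

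**Figure D3:**
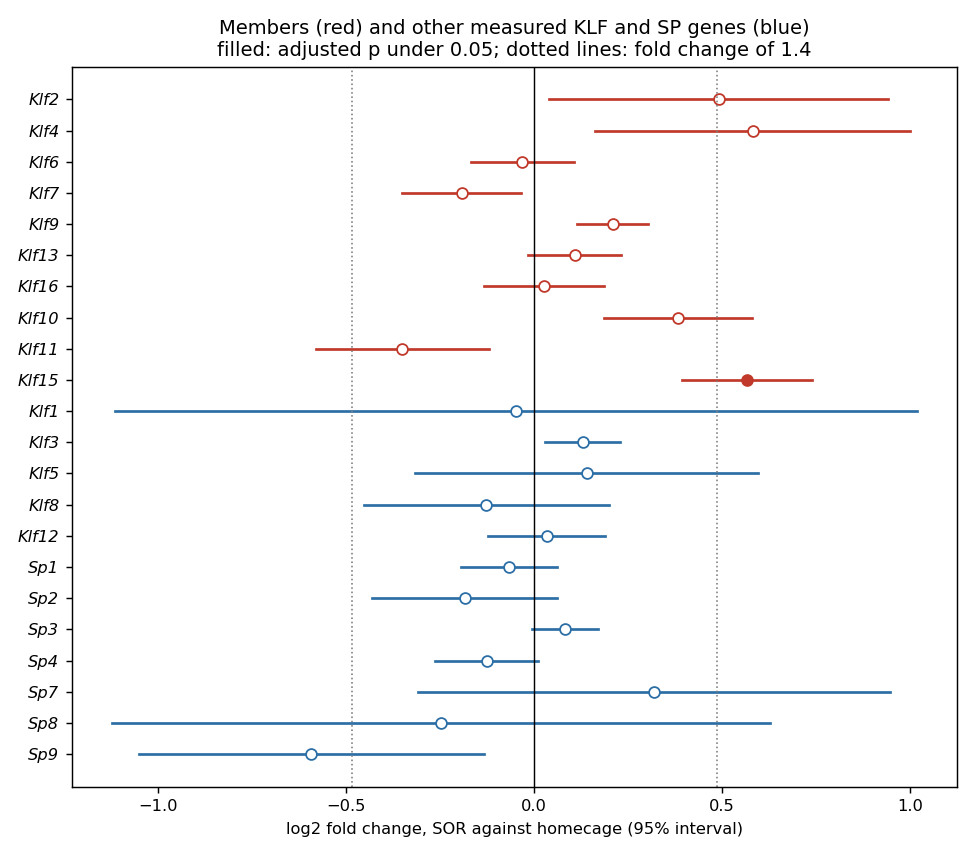
Log2 fold change of SOR against homecage with its 95% interval for the 10 members (red) and for the other measured KLF and SP genes (blue) apart from *Sp6*, which had no counts in SOR mice. Only *Klf15* is filled, for an adjusted p under 0.05, and the intervals of *Klf2* and *Klf4* are the widest among the members.

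Of the other 8 KLF genes, 7 were in the table and 5 were tested, and 0 passed in either direction in edgeR's test (1 at an unadjusted p under 0.05) or with DESeq2, which gave no adjusted p for 1 of them, *Klf1*. Their median log2 fold change was 0.03. *Klf3*, a repressor that works through CtBP, had the smallest p, with 37.1 ± 0.731 CPM in the homecage group, and 40.6 ± 1.63 CPM after SOR training (SD, n = 4 in each group). Its groups were separate, at a log2 fold change of 0.13 ± 0.0451 (SE; edgeR adjusted p = 0.364). *Klf14* and *Klf17* had too few counts to be tested. The SP factors share the zinc fingers of the family, and of 9 SP genes 8 were tested, with 2 higher and 6 lower in SOR mice. Of these *Sp6* alone passed, with between 27.5 and 56.1 counts in homecage libraries and none in the 4 SOR libraries. With each SOR library set to a floor of 3 counts, which covers counting error only, the homecage mean was 12.4-fold above that floor. *Sp6* had an adjusted p of 0.00326 from the edgeR test, and why the SOR libraries held no counts was not tested. It passed in 11 of the 12 alternatives that gave an adjusted p, and not with the replicate number as a block (adjusted p = 0.0661), while DESeq2 gave it no adjusted p.

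Among 12 corepressors and coactivators, which include the SIN3 and CtBP proteins, 0 passed, and log2 fold changes ran from -0.10 to 0.22. *Hdac3*, a histone deacetylase, had the smallest p (log2 fold change -0.10, adjusted p = 0.453 from the edgeR test, with 1 of the 12 genes at an unadjusted p under 0.05 and 0 called by DESeq2). Among 6 ubiquitin ligases described for KLF proteins, 1 fell and none rose. This was *Fbxo32*, a ligase described for KLF4 and better known for muscle atrophy, with 30.6, 32.4, 33.4 and 30.5 CPM in the homecage group, and 20.7, 24.5, 21.4 and 20.9 CPM after SOR training. Every SOR value was below every homecage value, with a log2 fold change of -0.54 ± 0.0665 (SE; edgeR adjusted p = 0.00636), and it passed in all 13 alternatives and in all 8 fits without 1 mouse.

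Upstream of the family, none of the 11 tested genes of the ERK5 and MEF2 pathway passed, 2 had an unadjusted p under 0.05 in edgeR's test, and their median log2 fold change was 0.01. The smallest p was that of *Map3k2*, a kinase that activates the ERK5 cascade, with 61.1 ± 1.35 CPM in the homecage group, and 69.0 ± 2.84 CPM after SOR training (SD, n = 4 in each group). Its values did not overlap, and the edgeR test gave it a log2 fold change of 0.18 and an adjusted p of 0.144, and it passed in 3 of 13 alternatives, DESeq2 among them. All 9 TGF-beta pathway genes, ligands and SMADs included, missed the threshold, as well as an unadjusted p of 0.05, with *Tgfb3* at a log2 fold change of 0.15 (adjusted p = 0.615), and DESeq2 called 0. The glucocorticoid receptor *Nr3c1* had 146 ± 1.49 CPM in the homecage group, and 136 ± 4.64 CPM after SOR training, with SOR below throughout and an adjusted p of 0.364 from the edgeR test. Together with it the mineralocorticoid and thyroid hormone receptors made up 4 genes, of which 0 passed in either tool and 1, *Nr3c1*, had an unadjusted p under 0.05.

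Genes known to respond to glucocorticoids, the hormones that also induce *Klf9* and *Klf15*, were higher in SOR mice for 14 of 15 genes, and 5 of 15 rose past the threshold. Their median log2 fold change was 0.56, and the list was set with earlier results of these mice known, so that it is not independent evidence of direction. In edgeR's test 12 of the 15 had an unadjusted p under 0.05, beside 10.1% of all genes. DESeq2 called 11 of them, and 435 genes in all. The list shares *Dusp1*, named here for that reason, with the immediate early genes, and *Cdkn1a* with the described targets. The 5 genes past the threshold in edgeR's test were *Sgk1*, *Plin4*, *Nfkbia*, *Tsc22d3* and *Errfi1*. *Tsc22d3*, which encodes the glucocorticoid-induced leucine zipper, had 40.3, 43.7, 43.1 and 41.9 CPM in the homecage group, and 66.8, 60.1, 59.2 and 76.3 CPM after SOR training. SOR replicates 1 and 4 held the highest values, as they did for *Nfkbia* and *Errfi1*, while SOR replicates 1 and 2 were the highest for *Sgk1* and *Plin4*. The log2 fold change of *Tsc22d3* was 0.63 ± 0.0758 (SE; edgeR adjusted p = 0.00553), and that of *Errfi1*, an inhibitor of the EGF receptor, was 0.56 ± 0.0637 (SE; edgeR adjusted p = 0.00477). *Fkbp5*, named after its values were seen, had 37.1 ± 2.46 and 36.4 ± 4.35 CPM, a fold change of 0.982 with an interval from 0.862 to 1.12. Of 12 immediate early genes, which neuronal activity induces within minutes, 8 rose past the threshold and none fell past it. These were *Arc*, *Fos*, *Fosb*, *Junb*, *Egr1*, *Egr2*, *Egr4* and *Nr4a1*. At an unadjusted p under 0.05 in edgeR's test there were 10, and DESeq2 called 9. Without a threshold 11 were higher and 1 lower. The lower gene was *Npas4*, named after its values were seen (log2 fold change -0.49, edgeR adjusted p = 0.503). Among all genes tested, 43.8% were higher in SOR mice and 0.273% passed as higher. The list of immediate early genes too was set with earlier results known. Of the 8 that passed, *Egr1* passed in 2, *Egr4* in 3 and *Nr4a1* in 7 of the 8 fits without 1 mouse, and the other 5 in all 8.

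Among 12 described targets of the family, 11 were tested and 0 passed in edgeR's test, with 2 at an unadjusted p under 0.05 and 1, *Cdkn1a*, called by DESeq2. *Cdkn1a*, the cell cycle inhibitor p21 that KLF4 and KLF6 induce, had the smallest p, with 1.68 ± 0.262 CPM in the homecage group, and 2.93 ± 0.553 CPM after SOR training. Its log2 fold change of 0.80 had a standard error of 0.169 and an adjusted p of 0.109 from the edgeR test. The list holds 4 metabolic genes described for the family, named here after their values were seen, and they lay on both sides. *Prodh*, the first enzyme of proline breakdown, was higher in every SOR mouse, with 22.3, 22.0, 23.9 and 23.6 CPM in the homecage group, and 27.5, 25.3, 24.5 and 25.0 CPM after SOR training (fold change 1.11, interval from 1.02 to 1.22, edgeR adjusted p = 0.4). *Bcat2*, which breaks down branched-chain amino acids, had 4.59, 4.54, 3.93 and 4.78 CPM in the homecage group, and 6.86, 4.62, 4.38 and 4.30 CPM after SOR training, with SOR replicate 1 alone above the homecage range (adjusted p = 0.764). The alanine aminotransferase gene *Gpt* had a lower mean in SOR mice, 8.07 ± 0.661 against 8.86 ± 0.812 CPM (SD, n = 4 in each group; log2 fold change -0.13, edgeR adjusted p = 0.698). *Slc2a4*, the insulin-responsive glucose transporter, was scarce, with 0.345 ± 0.134 against 0.365 ± 0.161 CPM (log2 fold change -0.07, edgeR adjusted p = 0.974). The groups overlapped for *Bcat2*, *Gpt* and *Slc2a4*.

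**Figure D4:**
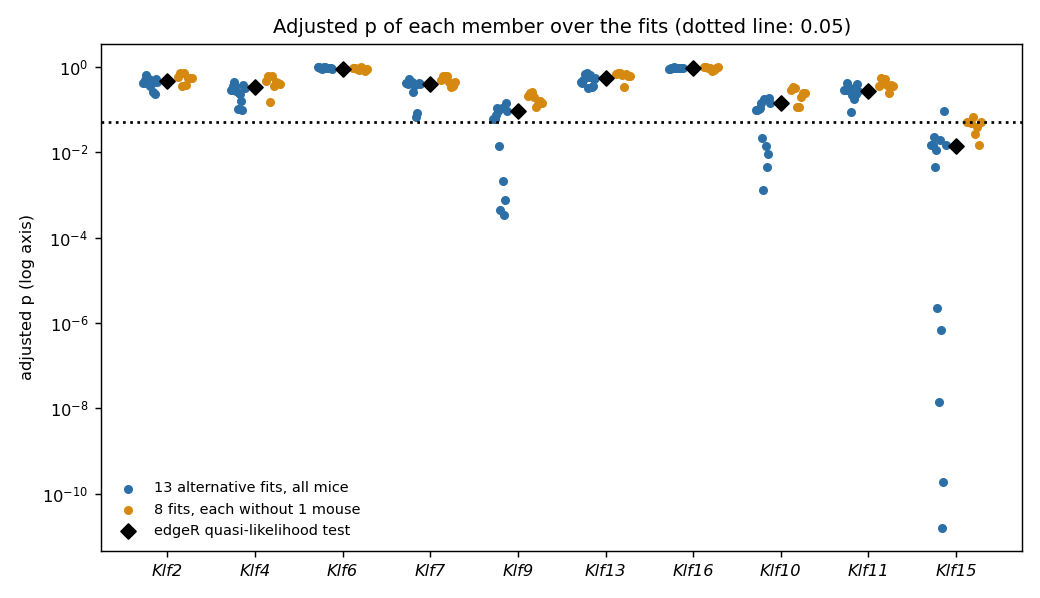
Adjusted p of each member on a log axis for edgeR's quasi-likelihood test (black), for 13 alternative fits with all mice (blue) and for the 8 fits without 1 mouse each (orange), with a dotted line at 0.05. *Klf15* lies under the line in 12 of 13 alternatives and in 4 of 8 fits without 1 mouse, *Klf9* and *Klf10* in 5 of 13 alternatives and in none without 1 mouse, and the other 7 genes in none.

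Promoter sequences of 8 members, all but *Klf10* and *Klf16*, were read from a RefSeq table on GRCm38.p6. The sequences of *Klf15*, *Klf9*, *Klf11*, *Klf4* and *Klf2* are printed: *Klf15* as the member that passed the threshold, *Klf9* as the other hormone-responsive factor, *Klf11* as the member with the lowest fold change, and *Klf4* and *Klf2* as the pair downstream of MEF2. They run 5′ to 3′ on the strand of the gene, and letters inside the gene as GENCODE draws it are left out. Capitals mark matches, on either strand, to the E-box CACGTG, to the core TGACG of the cyclic AMP response element (CRE) and to the MEF2 site. The windows are chr6:90462326-90462575 (plus) for *Klf15*, chr19:23140976-23141225 (plus) for *Klf9*, chr12:24651121-24651273 (plus) for *Klf11*, chr4:55532476-55532725 (minus) for *Klf4* and chr8:72318812-72319032 (plus) for *Klf2*.
Klf15: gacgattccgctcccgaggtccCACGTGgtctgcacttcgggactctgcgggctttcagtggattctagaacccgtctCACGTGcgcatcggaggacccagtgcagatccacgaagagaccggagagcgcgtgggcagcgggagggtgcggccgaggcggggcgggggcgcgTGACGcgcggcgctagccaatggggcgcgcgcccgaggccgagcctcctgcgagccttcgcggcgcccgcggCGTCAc
Klf9: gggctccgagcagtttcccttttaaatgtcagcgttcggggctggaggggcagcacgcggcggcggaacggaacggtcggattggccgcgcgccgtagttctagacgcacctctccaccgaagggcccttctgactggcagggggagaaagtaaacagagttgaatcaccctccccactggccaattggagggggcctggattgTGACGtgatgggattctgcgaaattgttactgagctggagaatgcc
Klf11: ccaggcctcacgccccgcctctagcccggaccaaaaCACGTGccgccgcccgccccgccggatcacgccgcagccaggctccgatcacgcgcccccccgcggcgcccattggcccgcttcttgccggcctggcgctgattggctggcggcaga
Klf4: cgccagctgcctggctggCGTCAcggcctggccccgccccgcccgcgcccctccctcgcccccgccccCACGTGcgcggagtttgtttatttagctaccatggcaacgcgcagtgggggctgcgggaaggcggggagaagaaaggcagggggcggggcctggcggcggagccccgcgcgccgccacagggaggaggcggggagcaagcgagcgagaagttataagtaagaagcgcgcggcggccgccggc
Klf2: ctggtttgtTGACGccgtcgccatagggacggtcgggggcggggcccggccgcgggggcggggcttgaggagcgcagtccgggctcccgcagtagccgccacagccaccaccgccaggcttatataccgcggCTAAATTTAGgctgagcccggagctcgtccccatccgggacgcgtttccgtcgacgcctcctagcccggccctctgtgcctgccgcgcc

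*Klf15* held 2 E-boxes, the element that clock factors of the CLOCK and BMAL1 type bind, at 228 and 172 bases before the RefSeq start, and 2 CRE cores. Of all 32851 promoter windows of the same 250 bases, 0.429% held 2 or more such E-boxes, and 0.905% of the 9837 windows with at least 59% G and C did. *Klf4*, *Klf6* and *Klf11* held 1 E-box each, as 6.02% of all windows and 9.33% of the GC-rich windows held at least 1. CRE cores stood in 5 of the 8 windows, 2 in *Klf15* and 1 each in *Klf2*, *Klf4*, *Klf9* and *Klf13*, where that of *Klf9* lay 46 bases before the start. At least 1 core was held by 17.8% of all windows and 26.9% of the GC-rich windows, and 2 or more by 3.9% and 7.42%. *Klf2* was the only one of the 8 with a MEF2 site, 118 bases before the RefSeq start, a site that 2.92% of all windows and 0.569% of the GC-rich windows held. None of the 8 windows held a full palindromic CRE, a CArG box (the serum response element) or the glucocorticoid receptor motif AGAACA in these letters. Of all windows, 1.55%, 1.47% and 16.1% held them, and of the GC-rich windows 2.69%, 0.956% and 6.33%. The GC box GGGCGG, to which KLF and SP proteins bind, stood in 7 of the 8 windows, all but that of *Klf9*, beside 32.7% of all and 75.0% of the GC-rich windows. CACCC stood in 5 of 8, beside 52.0% and 65.2%, and CCAAT in 5 of 8, beside 33.8% and 29.2%. The windows had 59.2% to 76.8% G and C, above the median of 52.4% over all windows. Matches were counted in all 250 bases before the RefSeq start, also where these lie inside the gene as GENCODE draws it. That held for all 250 bases of *Klf7*, and for 97 of *Klf11*, 29 of *Klf2* and 7 of *Klf6*. The matches describe the letters, and no binding was measured here.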

How the data were processed

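Bulk RNA-seq counts of 4 homecage and 4 SOR mice were used, 1 library per mouse; groups and replicate numbers came from the sample titles. The table deposited by the authors holds estimated counts, not normalized, of which 52.6% were not whole numbers. The methods name a stranded total RNA kit with ribosomal RNA depletion, STAR and featureCounts within bcbio-nextgen, while the deposited table is a tximport summary and the labels name polyA RNA; a scaling from abundance is not stated and could shift levels per kb. The labels name mm10, the assembly of GENCODE M21 (GRCm38), which gave symbols, positions and merged exon lengths for 54495 of 54532 genes. The spatial, single-nucleus and ATAC samples were not analysed here.

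Counts were rounded, filtered with filterByExpr, scaled with upper-quartile factors and tested by quasi-likelihood in edgeR 4.0.16 (R 4.3.3), with p-values adjusted by Benjamini-Hochberg across every tested gene; a gene passed at an adjusted p under 0.05. Standard errors came from the log2 fold change and F, and 95% intervals from the t distribution. CPM use the scaled library sizes. A two-sided exact permutation test of log2 CPM ran over the 70 groupings of 4 against 4 for each gene (scipy 1.17.1). The alternatives tried were scaling by TMM, RLE or library size, no filter, more than 5 counts in at least 2 libraries, unrounded counts, the likelihood ratio test, DESeq2 1.42.0, limma-voom (limma 3.58.1), 1 to 3 RUVs factors (written out after the published method, with the likelihood ratio test), the replicate number as a block, a fold change above 1.4, and each mouse left out. The edgeR fit was tested on simulated counts. Replicate libraries differed beyond counting error (chi-square over its degrees of freedom, 12.1 to 54.9).

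The genes, lists and tests were chosen with earlier results of these data known. Named genes are the 10 members and, from each other list, every gene past the threshold and the one with the smallest p; all others are marked. The lists are other KLF genes, SP genes, cofactors, ubiquitin ligases, the ERK5 and MEF2 pathway, hormone receptors, the TGF-beta pathway, described targets, glucocorticoid response, immediate early genes, and markers of endothelial and mural cells, astrocytes, microglia, oligodendrocytes, choroid plexus, red blood cells and hippocampal neurons. Promoter letters were searched in the 250 bases before each RefSeq start.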

Additional observations from a re-analysis of the deposited data

Results flagged for a closer look

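A sample was set apart where its gap to the nearest of the other mice of its group exceeded the 95% critical value of Dixon for 4 samples. The check covered the members and the genes named for passing the threshold or for the smallest p of a list. Genes named after their values were seen were not checked. Of the 78 groups covered, 4 held such a sample, and chance gives that in about 1 in 20 groups. Among the members, *Klf2* of SOR replicate 1 stood apart at 1.02 CPM, with 1.4 to 1.46 CPM for the rest of its group. *Klf3* of SOR replicate 3 reached 43.0 CPM, the rest 39.6 to 39.9 CPM. *Egr2* stood at 1.86 CPM in homecage replicate 1, against 0.879 to 0.956 CPM. The choroid plexus marker *Folr1* of SOR replicate 1 reached 53.0 CPM, the rest 0.73 to 7.59 CPM.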

How the results depend on the processing

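Under scaling, filter, rounding and limma-voom alternatives, 1 member, *Klf15*, passed the adjusted p threshold. With the likelihood ratio test, DESeq2 and 1, 2 or 3 RUVs factors, 3 members passed in each fit, *Klf9*, *Klf10* and *Klf15*; with the replicate number as a block, 0 passed, and the adjusted p of *Klf15* was 0.095. Without 1 mouse in turn, between 0 and 1 passed. Over all genes the count was 68, and it was 214 with the likelihood ratio test, 435 with DESeq2, 305, 500 and 508 with 1, 2 and 3 RUVs factors, 40 with the replicate block, 38 with a fold change above 1.4, and between 30 and 55 without 1 mouse. The direction of 8 members held in every fit; *Klf6* turned to a log2 fold change of 0.022 without homecage replicate 1, with a range from -0.066 to 0.022 without each mouse in turn, and *Klf16* to -0.026 without SOR replicate 3, with a range from -0.026 to 0.066. The cause was not tested. The replicate numbers mark no shared litter or day in the labels, and deviations from the group means of same-numbered mice correlated between -0.084 and 0.073, so the numbers were not taken to pair the mice; 0 of 4 homecage mice correlated best with the SOR mouse of the same number. *Klf2* and *Klf4* had at most 160 counts per library and coefficients of variation of 24.5% and 28.6% among homecage mice.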

Other observations

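Markers of other cell types were described by the same test. Over all genes tested, 43.8% were higher in SOR mice, the median log2 fold change was -0.02, and 10.1% had an unadjusted p under 0.05. All 7 oligodendrocyte markers were lower in SOR mice, their median log2 fold change being -0.19. In edgeR's quasi-likelihood test 0 of them passed, with 3 at an unadjusted p under 0.05, and DESeq2 called 1, *Opalin*, which had the smallest p of that list (log2 fold change -0.50). Of 7 microglia markers, 5 were lower and 0 passed, with 2 at an unadjusted p under 0.05 in edgeR's test. *Cx3cr1*, the fractalkine receptor, was at a log2 fold change of -0.24. The 6 mural cell markers had 3 genes on either side of 0, with *Pdgfrb* at -0.23, and the 8 astrocyte markers had 4 on either side, with *Aqp4* at -0.08. The tight junction gene *Cldn5* was below the homecage values in all SOR mice, with 27.7 ± 3.02 CPM in the homecage group, and 22.4 ± 0.732 CPM after SOR training (SD, n = 4 in each group) and an adjusted p of 0.199 from the edgeR test; DESeq2 called it as lower. Among 5 red blood cell markers, all were higher in SOR mice and 0 passed. In edgeR's test 2 had an unadjusted p under 0.05, with *Hbb-bt* at the smallest p. *Wfs1* had the smallest p of the 8 hippocampal neuron markers, at a log2 fold change of 0.11.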
